A study of Mus musculus with 3 samples.

Results

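The growth differentiation factor Gdf15 and its relatives in the transforming growth factor beta (TGF-beta) family were followed in mouse leukaemia cells. They comprise 9 genes of the 34770 gene and transcript names on the array: the ligands Gdf15, Gdf3, Tgfb1, Tgfb2, Tgfb3 and Inhba, the receptors Tgfbr1 and Tgfbr2, and the inhibitory signal transducer Smad7. The genes were picked because Gdf15 and Tgfb3 stood high on a treated array, so their levels are given as a description, with no test. Every probe that carries the name of a member was taken, which gave 15 probes of 55657 and 33 spots of 59305. The 9 genes lie on 9 different chromosomes.

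The cells, called HoxA9-Meis1 AML cells in the labels after a pair of homeobox transcription factors, are an acute myeloid leukaemia of C57Bl/6 mice and came from whole bone marrow. They were kept in SFEM medium for 24 h without treatment, with Pyrydopyrazine A2 at 3.4 µM, or with retinoic acid (RA) and a vitamin D3 compound (D3V) at 10 µM each. The study set the expression profile of each treatment against that of untreated cells. Every condition is 1 one-colour array, and the labels give neither the number of animals behind the cells nor a second culture, so no difference has a replicate check and none was tested. The animals' age and how the Hoxa9 and Meis1 genes were introduced are not given in the sources used here.

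On each array 46.0% to 46.8% of spots were well above background and none was saturated. All 3 arrays share a slide and a scan. Of 13 markers of myeloid leukaemia cells 12 were well above background on every array. The exception was Meis1, a gene the cells are named for. Which treated array is which is in doubt: in the authors' deposited value table the column called RA plus D3V has the spot ranks of the scanner file called A2 (Spearman 1), and the reverse holds for the other column (Spearman 1). The scanner files' labels are used, as "the A2-labelled array" and "the RA plus D3V-labelled array", and each value below belongs to the array so labelled. The table's untreated column matched none of the scanner files (Spearman 0.936 with the untreated array at best) and served as a second untreated source of unknown origin. Differences against it also take the treated array from the value table, matched by spot ranks, so the table's own normalization enters them as well. The sources differed by an SD of 0.284 on the log2 scale over 17003 genes well above background on all 3 arrays, with 0.935% at least 2-fold apart. Over the wider set of 18247 genes well above background on the untreated array, the SD was 0.483, with 2.83% at least 2-fold apart. Where the SD between the untreated sources is named below without a value, it is the one of 0.284. No other spread between untreated measurements is available.

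TGF-beta family ligands are secreted dimers that bring type II and type I receptor kinases together, and the activated type I receptor phosphorylates receptor Smads that enter the nucleus with Smad4. Tgfb1, Tgfb2 and Tgfb3 are released in a latent complex that has to be opened before they can bind, whereas inhibitory Smads, ligand traps and ubiquitin ligases damp the signal. Gdf15 is a distant member of the family that is induced by many kinds of cell stress and signals through the receptor Gfral of the hindbrain. In blood-forming cells TGF-beta is known for holding back proliferation and for shaping myeloid differentiation.

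The sequences below show which part of a ligand was measured, and the stretch before the start of the 2 members with the largest measured differences. The probes of Tgfb1 (chr7:26489877-26489936, plus strand, mm9) and of Tgfb2 (chr1:188449333-188449392, minus strand, mm9) read the same stretch of the coding sequence for the mature peptide. Capitals mark the bases that are the same in both, 28 of 41 aligned bases (68.3%).
Tgfb1 probe: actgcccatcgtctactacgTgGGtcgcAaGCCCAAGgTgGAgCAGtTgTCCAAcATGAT
Tgfb2 probe: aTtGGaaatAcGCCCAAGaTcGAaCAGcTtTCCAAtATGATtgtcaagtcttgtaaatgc
The bases before the annotated start of Gdf15 (chr8:70632457-70632706, minus strand, GRCm38.p6) and of Tgfbr2 (chr9:116175364-116175613, minus strand, GRCm38.p6) are from RefSeq, 250 for each. RefSeq's table held such an entry for 6 of the 9 members, and for Gdf15 it held 2, of which the farther upstream is shown. Capitals mark every match, on either strand, to 7 motifs: AGGTCA (the core bound by nuclear receptors, among them the retinoid and vitamin D receptors), CAGAC (the core of the Smad box), TGANTCA (AP-1), TGACG (the core of the cyclic AMP response element), ACGTG (the hypoxia response core), GGGCGG (the GC box) and TATAAA (the TATA box).
Gdf15 upstream: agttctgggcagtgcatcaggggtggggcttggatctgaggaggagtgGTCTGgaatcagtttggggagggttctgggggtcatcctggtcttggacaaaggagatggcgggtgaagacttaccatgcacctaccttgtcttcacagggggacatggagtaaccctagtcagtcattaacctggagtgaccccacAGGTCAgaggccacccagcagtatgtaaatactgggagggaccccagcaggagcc
Tgfbr2 upstream: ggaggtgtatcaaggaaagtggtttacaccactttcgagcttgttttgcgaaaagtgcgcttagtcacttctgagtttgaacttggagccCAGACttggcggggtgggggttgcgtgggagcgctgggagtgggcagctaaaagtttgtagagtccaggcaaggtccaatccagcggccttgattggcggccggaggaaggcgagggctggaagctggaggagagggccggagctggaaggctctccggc
The Gdf15 stretch held 1 AGGTCA, which begins 55 bases before the start, and 1 CAGAC on the opposite strand, at 202 bases. The Tgfbr2 stretch held 1 CAGAC, at 160 bases. No marked matches overlap one another. AGGTCA occurs in 14% and CAGAC in 42.2% of the 32851 windows of the same length in the table, so neither match is rare. The other 5 motifs, each present in 6.75% to 32.7% of all windows, had no match in these stretches. A match is a string of letters, not a measured binding site.

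Among the ligands, Gdf15 stood far above both other arrays on the A2-labelled array. Its single probe (chr8:73153293-73153352, minus strand, mm9) had a processed signal of 114 on the untreated array, 501 on the RA plus D3V-labelled array and 34817 on the A2-labelled array, with errors of 12.3, 50.3 and 3482 from the scanner software's error model. The signal was lowest on the untreated array and highest on the A2-labelled array. The errors are technical and say nothing of the spread between cultures. After each array was scaled to its 75th percentile, the level was 401-fold higher on the A2-labelled array than on the untreated array (log2 difference 8.65) and 5.44-fold higher on the RA plus D3V-labelled array (2.44). The array labelled A2 lay 73.7-fold above the RA plus D3V-labelled array (6.20). Against the second untreated source the differences were 8.93 and 2.75. Among 17279 genes measured on both arrays, meaning that the brightest probe of the gene passed the background flag on each, the difference of Gdf15 was the highest on the A2-labelled array and the 86th highest on the RA plus D3V-labelled array.

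Tgfb3, a ligand that is made as a latent precursor, was detected on 1 of the 3 arrays. Its probe (chr12:87397804-87397863, minus strand, mm9) is printed in 10 spots, of which 8 or 9 per array had no outlier mark. None of 9 such spots was well above background on the untreated array, none of 9 on the RA plus D3V-labelled array, and all 8 on the A2-labelled array. The mean signal was 10.6 ± 2.52 (SD over 9 spots) on the untreated array, 12.0 ± 5.40 (9 spots) on the RA plus D3V-labelled array and 2683 ± 58.9 (8 spots) on the A2-labelled array. The lowest spot on the A2-labelled array (2590) was far above the highest on the others (14.9 and 21.0). Since the dim arrays give only a bound, the A2-labelled array was at least 178-fold above the untreated array and at least 155-fold above the RA plus D3V-labelled array. In these bounds the dim side is the lowest scaled signal of any probe well above background on that array.

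Tgfb1, the most widely expressed of the 3 TGF-beta isoforms in blood cells, was well above background on every array and differed by less than 2-fold. Its replicate spots averaged 5167 ± 220 (SD, 9 spots) on the untreated array, 5689 ± 89.8 (10 spots) on the RA plus D3V-labelled array and 4261 ± 59.3 (10 spots) on the A2-labelled array. The scaled log2 differences from the untreated array were 0.11 on the A2-labelled array and 0.44 on the RA plus D3V-labelled array. The former is below and the latter above the SD of 0.284 between the untreated sources, and both are short of 2-fold. The difference of 0.44 is below the SD of 0.483 over the wider set of genes. Against the second untreated source the differences were 0.51 on the A2-labelled array and 0.90 on the RA plus D3V-labelled array, still short of 2-fold. Spot SDs describe printing and scanning on 1 array, not cultures. They came to 0.0620, 0.0226 and 0.0201 on the log2 scale for Tgfb1, in the same order of arrays.

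**Figure D1:**
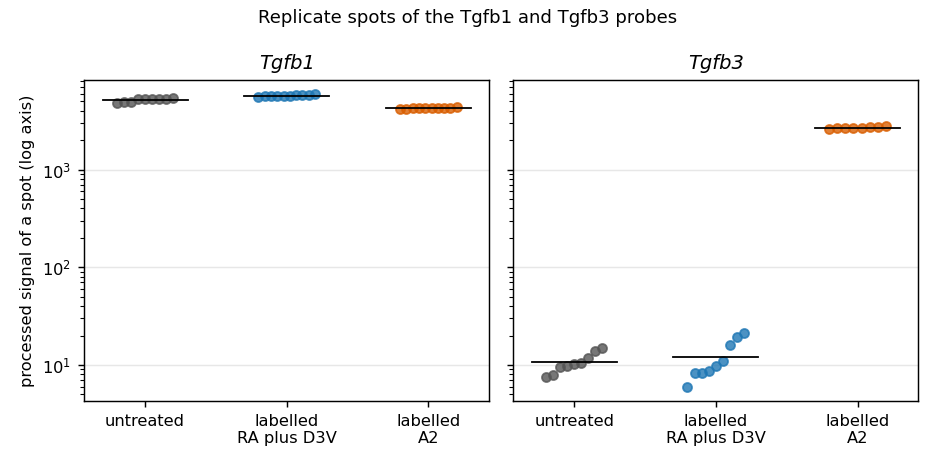
Processed signal (log axis) of each replicate spot of the Tgfb1 and Tgfb3 probes on the 3 arrays, with a black line at the mean of an array's spots. Tgfb1 spots lie between 4154 and 5885 on all arrays, whereas Tgfb3 spots lie at 21.0 or less on the untreated array and the RA plus D3V-labelled array and at 2590 or more on the A2-labelled array.

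The remaining ligands were dim or little changed. Tgfb2, the third TGF-beta isoform, was not well above background with either of its probes on any array: the signals were 15.1, 5.89 and 4.16 with the coding probe printed above, and 4.59, 4.28 and 3.55 with the other, for the untreated array, the RA plus D3V-labelled array and the A2-labelled array. No fold can be given for it. Gdf3, a ligand of early embryonic cells, was dim and flat, with signals of 82.2, 84.2 and 82.8 in the same order and scaled log2 differences of 0.34 on the RA plus D3V-labelled array and 0.40 on the A2-labelled array. Against the second untreated source those became -0.20 and -0.04. The treated values come from the value table there too, so the change of sign cannot be laid to the untreated source alone. Its other probe read 31.8, 31.9 and 38.0, with differences of 0.30 on the RA plus D3V-labelled array and 0.64 on the A2-labelled array. That probe kept its sign against the second untreated source (0.23 and 0.70).

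Inhba, which encodes the subunit of activin A, had its highest signal on the RA plus D3V-labelled array. The signals were 114 on the untreated array, 153 on the RA plus D3V-labelled array and 85.0 on the A2-labelled array. The scaled difference from the untreated array was 0.72 on the RA plus D3V-labelled array and -0.04 on the A2-labelled array. The treated arrays were 0.76 apart in favour of the RA plus D3V-labelled array. Against the second untreated source the differences were 0.94 on the RA plus D3V-labelled array and 0.29 on the A2-labelled array. None of these reached 2-fold.

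The receptors differed from each other. Tgfbr2, the type II receptor that binds the ligand, was 11.0-fold higher on the A2-labelled array (log2 difference 3.46) and slightly lower on the RA plus D3V-labelled array (-0.62) than on the untreated array. Its brightest probe (chr9:115997155-115997214, minus strand, mm9) read 1864 on the untreated array, 985 on the RA plus D3V-labelled array and 15711 on the A2-labelled array. Its other probe (chr9:115999496-115999555) read 121, 87.8 and 679, which gives 2.87 on the A2-labelled array and -0.17 on the RA plus D3V-labelled array. Both probes were thus high on the A2-labelled array alone. The distance between the treated arrays was 4.08 with the brightest probe and 3.04 with the other, and the brightest probe's difference of 3.46 was the 89th highest of 17279.

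Tgfbr1, the type I receptor kinase that passes the signal to the Smads, gave an unequal picture over its 4 probes. The brightest (chr4:47427736-47427795, plus strand, mm9) read 887, 616 and 511 on the untreated array, the RA plus D3V-labelled array and the A2-labelled array, with scaled differences of -0.23 and -0.41 for the treated arrays. A second probe of the same transcript (chr4:47424946-47425005) was not well above background on the untreated array (17.5) and was on the treated ones (41.2 and 40.8), at least 2.58-fold and at least 2.71-fold higher. Against the second untreated source that probe's differences were 0.57 and 0.78, short of 2-fold. The other 2 probes, to other transcripts of the gene, were not well above background on any array. The probes disagree in direction, and no direction is given for the gene.

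Smad7, an inhibitory Smad that is itself a target of TGF-beta signalling, was highest on the untreated array. The signals were 149 there, 89.9 on the RA plus D3V-labelled array and 71.9 on the A2-labelled array. The scaled differences were -0.43 and -0.67, against the second untreated source -0.24 and -0.38, and none reached 2-fold.

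**Figure D2:**
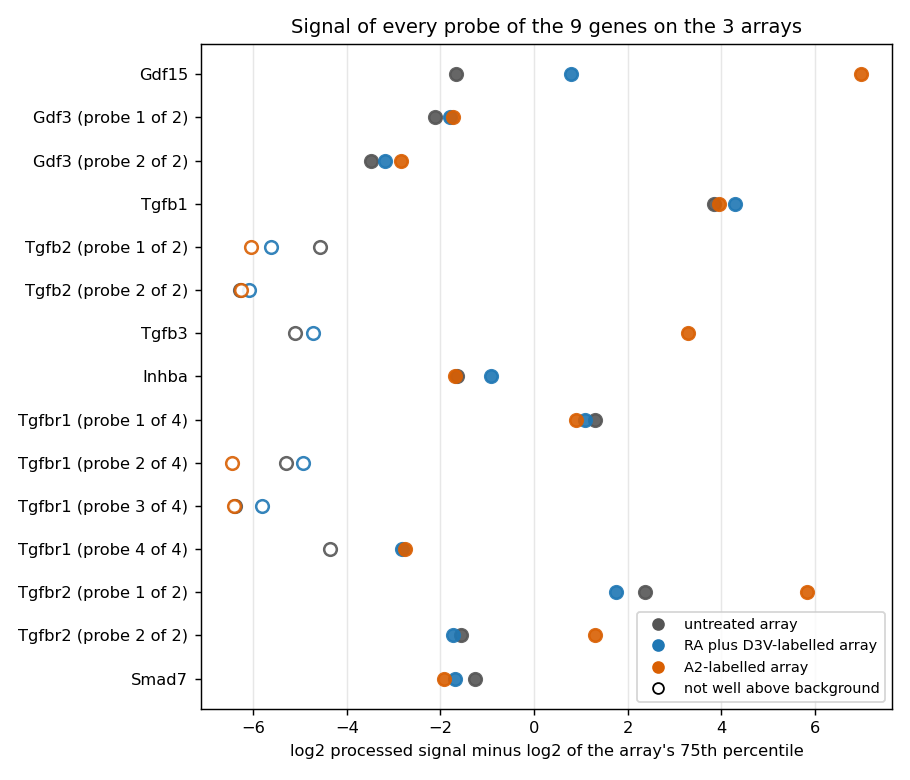
Scaled log2 signal of each of the 15 probes of the 9 genes (one per row) on the untreated array (grey), the RA plus D3V-labelled array (blue) and the A2-labelled array (orange), with open circles where the probe was not well above background. Gdf15, Tgfb3 and both Tgfbr2 probes stand far to the right on the A2-labelled array, and both Tgfb2 probes are open on all arrays; levels of different probes cannot be compared.

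Of the 9 members 7 were measured in each comparison. On the A2-labelled array, 2 of these, Gdf15 and Tgfbr2, were at least 2-fold higher and 0 were at least 2-fold lower, where 7.94% and 6.46% of all 17279 genes were. On the RA plus D3V-labelled array, 1, Gdf15, was higher and 0 were lower, against 7.81% and 5.04% of all genes. Between the treated arrays, 2 were higher on the A2-labelled array and 0 were lower, against 3.77% and 4.04% (7.82% either way) of 17628 genes. The members were chosen on these contrasts, and nothing is read from the counts. The median difference of the measured members was 0.11 on the A2-labelled array and 0.34 on the RA plus D3V-labelled array, beside medians of -0.03 and -0.03 over all genes. Against the untreated array the 2-fold threshold fell in a gap: Tgfbr2 at 3.46 and Gdf15 at 2.44 were the nearest inside it, and Smad7 at -0.67 and Inhba at 0.72 the nearest outside. Against the second untreated source Inhba (0.94) and Tgfb1 (0.90) were just short of 2-fold on the RA plus D3V-labelled array.

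**Figure D3:**
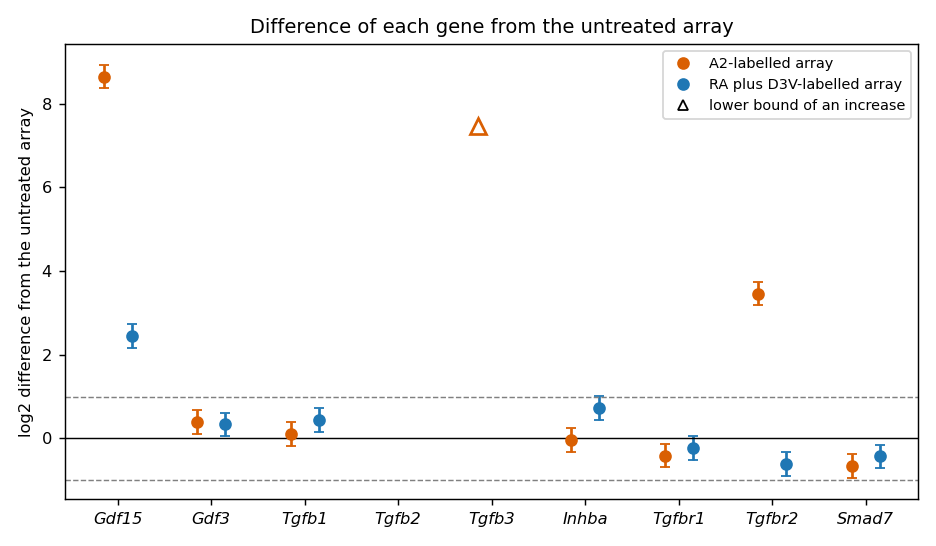
Log2 difference from the untreated array of the brightest probe of each gene for the A2-labelled array (orange) and the RA plus D3V-labelled array (blue); bars are the SD of 0.284 between the untreated sources, dashed lines mark 2-fold and the open triangle is a lower bound. Gdf15 lies at 8.65 and 2.44, Tgfbr2 at 3.46 and -0.62, and Tgfb3 at a bound of 178-fold for the A2-labelled array; Tgfb2 has no value.

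**Figure D4:**
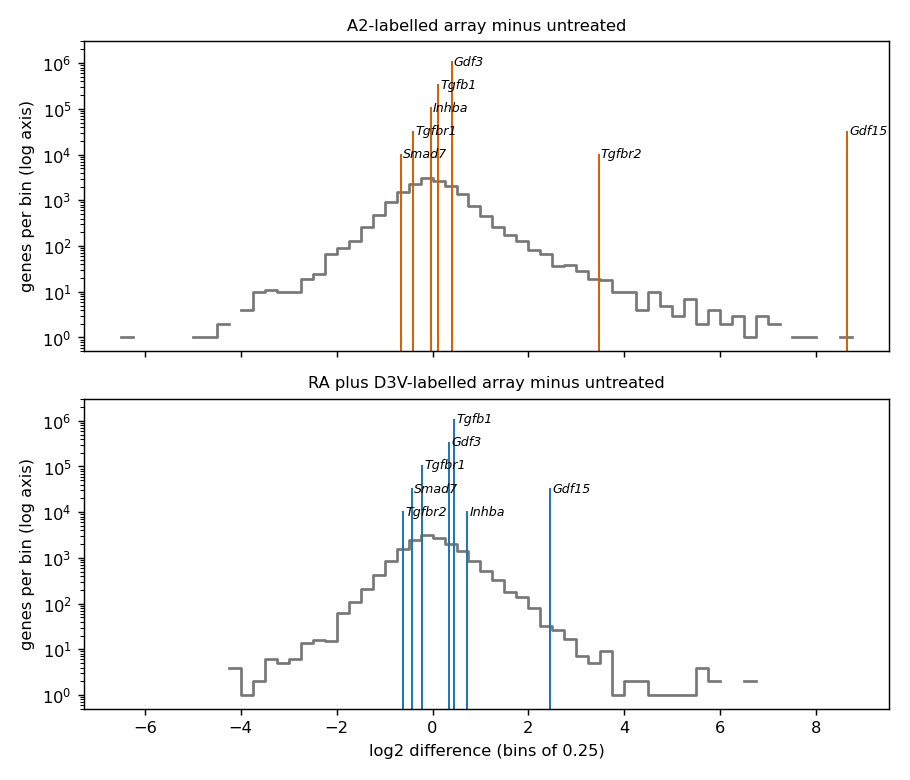
Number of genes (log axis) per bin of 0.25 of the log2 difference from the untreated array, over 17279 genes in each panel, with coloured lines at the 7 measured members. Gdf15 stands at the right end on the A2-labelled array, and the other members except Tgfbr2 lie within 2-fold of 0 in both panels.

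The 5 genes of the RefSeq table whose 2 differences lay nearest to those of Gdf15 were Ckb, Ccl6, Dapk2, Sdc3 and Fam20c, among 12327 genes measured on the 3 arrays. Nearness is the Euclidean distance between the pairs of log2 differences, which share the untreated array. Ckb, the brain-type creatine kinase, differed by 7.02 on the A2-labelled array and 2.42 on the RA plus D3V-labelled array, at a distance of 1.63. Ccl6, a myeloid chemokine, differed by 7.24 and 1.59 (distance 1.64), and Dapk2, a death-associated protein kinase of granulocytes, by 6.24 and 2.52 (2.41). Sdc3, a syndecan, differed by 5.75 and 2.57 (2.90), and Fam20c, a kinase of secreted proteins, by 6.08 and 0.95 (2.97). With 3 arrays the likeness describes 2 numbers per gene and no more.

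The rest of the pathway was read from 7 lists with 129 genes in all, of which 120 are not members. Of these, 71 were measured on the A2-labelled array and the untreated array. There were 20 at least 2-fold higher and 6 at least 2-fold lower, which is 36.6% beside 14.4% of all genes, with a median of 0.04. On the RA plus D3V-labelled array, 20 of 70 were higher and 5 lower (35.7%, beside 12.9% of all genes), with a median of 0.32. Against the second untreated source 19 of the 26 and 20 of the 25 were still at least 2-fold apart in the same direction. The lists were chosen with earlier results of these data known, and nothing is read from these shares. In these bulk samples fewer cells of a type and less RNA per cell cannot be told apart.

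Genes that hold, dock or open latent TGF-beta include the highest measured difference of any list gene other than Gdf15 on the A2-labelled array. Of 12 measured members of the latency list, 5 were higher and 1 lower (median 0.44). Lrrc32, which encodes the GARP protein that docks latent TGF-beta on the cell surface, read 75.3 on the untreated array, 86.6 on the RA plus D3V-labelled array and 2791 on the A2-labelled array, a difference of 5.60 on the A2-labelled array and 0.50 on the other. Ltbp3, a latent TGF-beta binding protein of the extracellular matrix, read 166, 147 and 2319 (4.19 and 0.12). Both were high on the A2-labelled array alone, as were Tgfb3 and Tgfbr2.

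Mmp9, Mmp14 and Thbs1, whose products can release the ligand, were at least 2-fold higher on both treated arrays, whereas the other proteases of the list were within 2-fold (Furin, Plau and Bmp1) or not well above background (Mmp2 and Pcsk6). The gelatinase gene Mmp9 read 152, 557 and 1540 on the untreated array, the RA plus D3V-labelled array and the A2-labelled array (2.18 and 3.73 for the treated ones). Thbs1, thrombospondin 1, read 74.4, 191 and 284 (1.66 and 2.32). The membrane protease gene Mmp14 was higher on the RA plus D3V-labelled array (2.53) than on the A2-labelled array (1.31). Ltbp2, a binding protein that does not bind latent TGF-beta itself, was lower on both (-2.31 and -1.02). On the RA plus D3V-labelled array the list had 3 higher and 1 lower of 12 (median 0.49). All 6 calls on the A2-labelled array and all 4 on the RA plus D3V-labelled array stayed at least 2-fold against the second untreated source.

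Platelets are rich in TGF-beta and thrombospondin, so their markers were read beside this list. The summed scaled signal of 9 platelet and megakaryocyte markers was 1.20 on the untreated array, 25.2 on the RA plus D3V-labelled array and 19.2 on the A2-labelled array, and 4, 5 and 5 of the 9 were well above background. Pf4, platelet factor 4, differed by 5.68 and 4.50 on the RA plus D3V-labelled array and the A2-labelled array, Vwf by 1.91 and 3.70 and Itgb3 by 2.86 and -0.27. Ppbp, pro-platelet basic protein, was not well above background on the untreated array (5.53) and read 654 and 2105 on the treated arrays in that order, at least 41.0-fold and at least 140-fold higher. The part of platelets or megakaryocytes in the list values was not tested. The defining receptor genes Itga2b, Gp9, Gp1ba and Gp6 were not well above background on any array.

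Among the other ligands few were detected. Of 33 genes in the ligand list, the 6 ligand members included, 14 were well above background on at least 1 array. On the A2-labelled array, 3 of 11 measured were higher and 0 lower (median 0.11), and on the RA plus D3V-labelled array 3 of 10 were higher and 1 lower (median 0.39). Besides Gdf15 the higher ones were Nodal (1.00 on each treated array) and Lefty2 (1.28 on the A2-labelled array and 1.44 on the RA plus D3V-labelled array), a ligand and an antagonist of embryonic patterning. Both were dim, at signals of 38.2 to 84.2, and against the second untreated source they fell short of 2-fold (0.61 and 0.51 for Nodal, 0.65 and 0.71 for Lefty2, the A2-labelled array first). Gdf9, an oocyte factor, was lower on the RA plus D3V-labelled array (-1.13) and within 2-fold on the A2-labelled array (-0.61). Gdf5, a ligand of joint formation, was not well above background on the untreated array and was at least 4.08-fold higher on the RA plus D3V-labelled array and at least 2.91-fold higher on the A2-labelled array.

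Of the 20 receptors and co-receptors 12 were measured, and on the A2-labelled array 3 were higher and 1 lower (median -0.24). On the RA plus D3V-labelled array 3 were higher and 0 lower (median 0.38). Besides Tgfbr2 the higher ones on the A2-labelled array were Amhr2, the receptor of anti-Müllerian hormone (1.69, and 1.31 on the RA plus D3V-labelled array), and Acvrl1, a type I receptor known from endothelium (1.04 and 1.36, and 0.84 on the former against the second untreated source). The activin receptor Acvr2b was higher on the RA plus D3V-labelled array (1.12, against 0.46). Acvr1c was well above background there alone, at least 2.15-fold over the untreated array. The Nodal co-receptor Tdgf1 was lower on the A2-labelled array (-1.47) and within 2-fold on the RA plus D3V-labelled array (-0.41), with -2.46 and -1.38 against the second untreated source. Gfral, the receptor of Gdf15, and its partner Ret, named here for their role after their values were seen, were not well above background on any array.

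Among the 9 genes of the Smad list, 6 were measured. Smad3, the receptor Smad that carries TGF-beta and activin signals, was higher on the A2-labelled array (1.53) and lower, short of 2-fold, on the RA plus D3V-labelled array (-0.73). Its signals were 498 on the untreated array, 244 on the RA plus D3V-labelled array and 1099 on the A2-labelled array. Smad5, a receptor Smad of the BMP branch, was lower on both (-1.08 on the A2-labelled array and -0.92 on the RA plus D3V-labelled array), past 2-fold on the former. Smad6, the inhibitory Smad of that branch, was well above background on the untreated array alone, and was at least 2.67-fold lower on the A2-labelled array and at least 2.34-fold lower on the RA plus D3V-labelled array. The list's median was -0.19 on the A2-labelled array and -0.51 on the RA plus D3V-labelled array, where 0 of 6 were past 2-fold.

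Known target genes of TGF-beta and BMP differed in both directions. Of 15 measured, 4 were higher and 3 lower on the A2-labelled array (median -0.37), and 6 were higher and 1 lower on the RA plus D3V-labelled array (median 0.71). Tgfbi, a secreted matrix protein named for its induction by TGF-beta, was higher on the RA plus D3V-labelled array alone: its signal was 14865 on the untreated array, 74650 on the RA plus D3V-labelled array (2.63) and 8387 on the A2-labelled array (-0.44).

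Targets that were higher on the A2-labelled array were the transcription factor gene Bhlhe40 (2.83, and 1.08 on the RA plus D3V-labelled array), the fibronectin gene Fn1 (2.33 and 1.17) and Col1a1, a collagen gene at least 4.72-fold above the untreated array on the A2-labelled array alone. Id2, an inhibitor of helix-loop-helix factors, was higher on the RA plus D3V-labelled array (1.29, against 0.45). The cell cycle inhibitor genes Cdkn2b (-1.71) and Cdkn1a (-1.05) were lower on the A2-labelled array. The target and latency lists share Ltbp2, and the target list shares Smad6 with the Smad list. Klf10 and Acta2, also counted as higher on both treated arrays and named after their values were seen, fell short of 2-fold against the second untreated source (0.79 and 0.99 on the A2-labelled array).

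Stromal cells also express Col1a1 and Fn1. The summed scaled signal of 9 stromal markers was 1.65 on the untreated array, 3.22 on the RA plus D3V-labelled array and 2.77 on the A2-labelled array, with 2, 2 and 3 of them well above background, and Col3a1, Dcn, Lum, Pdgfra and Cxcl12 were not on any array. Lepr, the only stromal marker measured against the untreated array, differed by 1.04 on the RA plus D3V-labelled array and 0.67 on the A2-labelled array, and by 0.23 and -0.18 against the second untreated source. For 6 endothelial markers the sum was 5.66, 9.10 and 8.25, with 2 well above background on each array (Pecam1 at 0.81 and 0.01, and Kdr at 0.67 and 0.60, the RA plus D3V-labelled array first), and Cdh5, Tek, Emcn and Esam were not on any. The part of these cells in the list values was not tested.

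Of 11 measured ligand traps and feedback inhibitors, 1 was higher on the A2-labelled array and 2 on the RA plus D3V-labelled array, and 0 were lower on either (medians 0.30 and 0.10). Nog, noggin, an antagonist of BMPs, differed by 1.36 on the A2-labelled array and 1.25 on the RA plus D3V-labelled array, but by 0.48 and 0.32 against the second untreated source. Fstl3, a follistatin-like protein that binds activin, differed by 1.11 on the RA plus D3V-labelled array and 0.91 on the A2-labelled array.

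Genes of stress responses, among them factors known to act on Gdf15, were in part higher and in part lower. All 15 were measured, and 5 were higher and 1 lower on the A2-labelled array (median 0.17), and 4 were higher and 3 lower on the RA plus D3V-labelled array (median -0.11). Ddit4, an inhibitor of mTOR induced by stress, read 3118 on the untreated array, 22291 on the RA plus D3V-labelled array and 25777 on the A2-labelled array (3.14 and 3.43). Atf3, a stress-induced transcription factor, was also higher on both (2.23 and 2.15).

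The oxygen-regulated factor gene Hif1a was higher on the A2-labelled array (1.87, against -0.11 on the RA plus D3V-labelled array), as was Cebpb (1.12 and 0.09), a factor of myeloid differentiation. Klf4, a factor of monocyte differentiation, was higher on the RA plus D3V-labelled array (2.28) and short of 2-fold lower on the A2-labelled array (-0.75). Egr1, an early response factor, was higher on both (1.26 on the RA plus D3V-labelled array and 1.11 on the A2-labelled array). Genes linked to the integrated stress response differed in both directions. Beside the higher Atf3, Ddit3 (-0.30 and 0.17, the RA plus D3V-labelled array first) and Trib3 (-0.57 and -0.16) were within 2-fold. On the RA plus D3V-labelled array Atf4 differed by -1.09 and its targets Chac1 and Asns by -1.24 and -1.37, and on the A2-labelled array all 3 were lower but within 2-fold (-0.50, -0.81 and -0.67). Trp53, which encodes p53, differed by -1.29 on the A2-labelled array and by -0.71 there against the second untreated source.

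**Figure D5:**
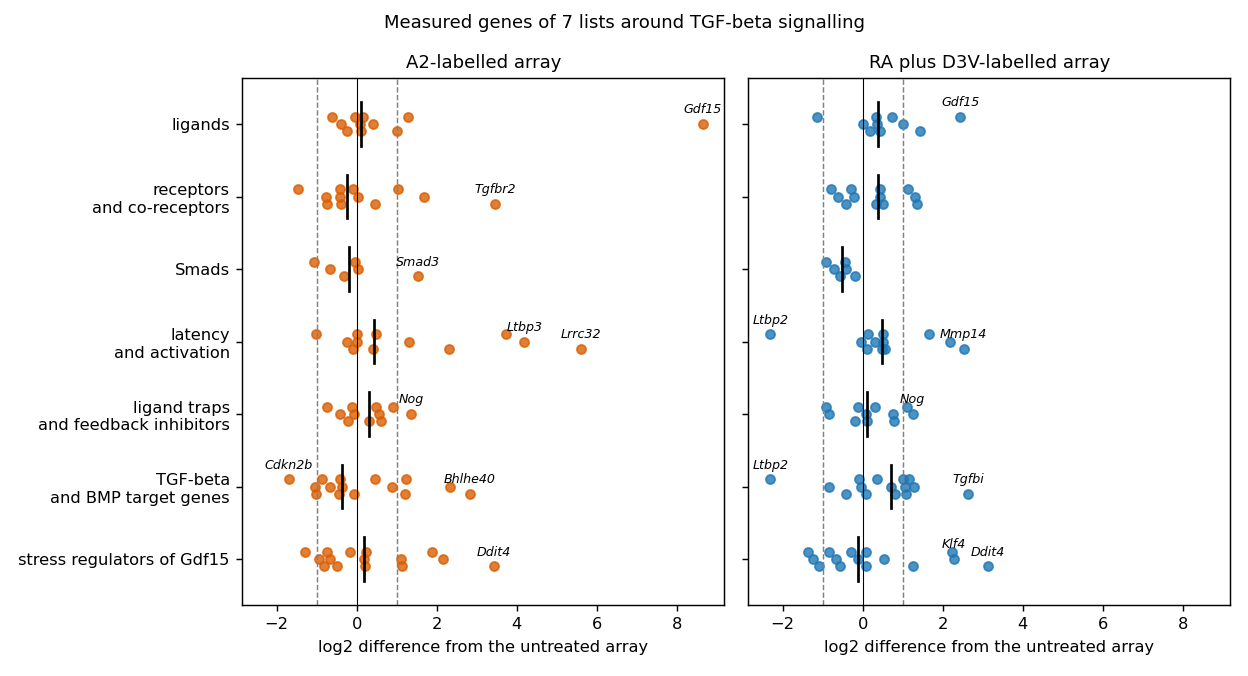
Log2 difference from the untreated array of each measured gene of the 7 lists (rows) on the A2-labelled array (left) and the RA plus D3V-labelled array (right); black bars are the list medians and dashed lines mark 2-fold. Gdf15, Tgfbr2, Lrrc32 and Ltbp3 stand apart on the left, with medians from -0.37 to 0.44, and medians on the right run from -0.51 to 0.71; genes with only a bound, such as Tgfb3 and Gdf5, are not drawn.

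Markers of differentiated myeloid cells were also higher on both treated arrays. The summed scaled signal of 9 macrophage markers was 79.1 on the untreated array, 258 on the RA plus D3V-labelled array and 214 on the A2-labelled array, with 6, 7 and 7 well above background and Vsig4 and Cd163 on none. Of 6 measured, 6 were at least 2-fold higher on the RA plus D3V-labelled array, led by Marco (3.57), C1qc (3.54) and C1qb (3.02) with Cd68 lowest (1.09), and 5 on the A2-labelled array, from C1qb (2.04) down to C1qa (0.77), which was short of 2-fold. The sum over the myeloid leukaemia markers was 1482, 1137 and 854 in the same order of arrays. In that list Itgam (2.31 and 2.37), Kit (0.42 and 1.70) and Hoxa9 (0.38 and 1.19) were the highest on the A2-labelled array, and Mpo (-1.57 and -2.22), Cd34 (0.67 and -1.30) and Cebpa (0.41 and -0.98) the lowest, the RA plus D3V-labelled array first. The part of a shift in cell composition or maturation in the values of the TGF-beta family was not tested.

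Among lymphoid and erythroid markers measured on both arrays none was at least 2-fold higher on a treated array, and some T and NK cell markers were lower. The summed scaled signal of 8 T and NK cell markers was 17.6, 11.8 and 16.9 on the untreated array, the RA plus D3V-labelled array and the A2-labelled array, that of 5 B cell markers 18.9, 12.5 and 18.6, and that of 6 erythroid markers 6.52, 4.01 and 3.76. The sum for T and NK cells rests mainly on Nkg7 and Cd3e, which stayed within 2-fold (0.22 and -0.25 on the A2-labelled array, -0.56 and -0.23 on the RA plus D3V-labelled array). Of 5 measured on the A2-labelled array, 3 were lower: Gzma (-2.09), Cd3d (-1.86) and Cd2 (-1.81). Of 4 measured on the RA plus D3V-labelled array, 2 were lower, Cd2 (-1.89) and Cd3d (-1.55), and Gzma was at least 5.27-fold lower there. Cd3g was well above background on the untreated array alone, at least 2.74-fold over the A2-labelled array and at least 2.38-fold over the RA plus D3V-labelled array. The B cell and erythroid markers measured were within 2-fold on both arrays, although Hbb-bt was past 2-fold lower on both against the second untreated source (-1.23 on the A2-labelled array). Cd8a, Klrb1c and Pax5 were not well above background on any array.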

How the data were processed

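RNA of 3 cultures was hybridized to 3 one-colour arrays, 1 per condition. The deposited scanner files hold intensity values, the processed signal of Agilent Feature Extraction 11.5.1.1 per the submitters' processing notes, and flags set by that software. The authors' deposited value table holds intensity values on a linear scale that were quantile normalized (99.9% of sorted values equal within 0.01%). From the files, spots marked as outliers were left out (128 to 202 per array), log2 signals were scaled to each array's 75th percentile and replicate spots averaged. Of the probes, 27646 were named by accession, 3400 by symbol, 321 by synonym, and 24290 kept the file's name. A gene was read from its brightest probe, and called at 2-fold where that probe passed the background flag on both arrays. The reference is of a later build than the mm9 probe positions, so exons are not given. Members, lists and rules were chosen with earlier results of these data known. All members were named, with the genes of each list past 2-fold (where more than 8, the 4 highest and 4 lowest per comparison), up to 3 markers each way, and the 5 genes nearest to Gdf15. A few genes that the rule takes are not reported here. The calling step was checked on simulated arrays with known changes. Their noise was smaller than the SD between the untreated sources and no change just past 2-fold was simulated, so the check gives no error rate for the calls. R 4.3.3 with limma 3.58.1, Python 3.11.15 and pandas 2.3.3 were used. With 1 array per condition no test between conditions was run, and the number of arrays limits the precision. The 8 alternatives were normexp background correction, 2 other scalings, the value table, the mean over probes, 2 other filters and exchanged labels.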

Additional observations from a re-analysis of the deposited data

How the results depend on the processing

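No paired analysis was possible because each condition is 1 array, and for the same reason no array could be left out. Gdf15 stayed higher than untreated on both treated arrays under all 8 alternatives. Several of these could not have changed that. Gdf15 has a single probe, bright on the treated arrays, so the mean over probes and the other filters left its values as they were. Exchanged labels only swapped its values between the treated arrays. Its difference on the A2-labelled array was 7.89 with normexp background correction and 8.94 with the value table, and on the RA plus D3V-labelled array 1.87 and 2.76. The table's treated columns were matched to the arrays by spot ranks, not by their labels, and were not scaled again. Normexp with an offset of 50 gave 1278 called genes and 16 called pathway genes for the RA plus D3V-labelled array and 824 genes between the treated arrays, of which 59.3% were higher on the A2-labelled array (48.3% in the values reported). With brighter genes only, 1573, 1220 and 831 genes were called (A2, RA plus D3V, and between them) and 16 pathway genes for RA plus D3V. Without the background filter these were 6391, 6509 and 4726 genes (37.8% higher in the last), with 4 members for A2 and 2 for RA plus D3V, and 40 and 32 pathway genes for RA plus D3V and between the treated arrays. The added genes are not well above background on at least 1 of the arrays compared. With the value table's labels, which exchange the treated arrays, Gdf15 is at 2.44 for A2 and 8.65 for RA plus D3V and at -6.20 between them, Tgfbr2 at -0.62 for A2 and -4.08 between them, and 1 member is called for A2 and 2 for RA plus D3V. Of 135 values of the other members under the alternatives, 111 moved by less than the SD between the untreated sources and the others by more. The other filters do not alter a member's value, so the values under them could not move. The same holds for the mean over probes for Tgfb1, Inhba and Smad7, which have a single probe each. The sign changed in 16 of the 135: in 10 of 18 with exchanged labels, 2 of them from past 2-fold (Tgfbr2, just given), and in 6 of 117 with the other alternatives, all short of 2-fold (Gdf3, Inhba and Tgfbr1). Signals near background limit Gdf3, Tgfb2 and the fainter Tgfbr1 probes. The signals of Inhba (85.0 to 153) and Smad7 (71.9 to 149) were also dim. So was that of Gdf15 on the untreated array (114), and the size of its fold depends on the background correction.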
